A study of Arabidopsis thaliana with 6 samples.

Results

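The transcriptome of the wild-type seedling shoot was described from 3 arrays, out of 6 in the series. They are the arrays labelled wild type, and each was hybridised with total RNA from the aerial part of Columbia seedlings aged 11 days. The seedlings had grown at 22 °C on plates of GM medium with 0.8% agar and 1% sucrose, in a 16 h day of about 80 µmol per square metre and second, and were frozen 4 h after the lights came on. The other 3 arrays came from eif3k, a T-DNA insertion mutant of the k subunit of the initiation factor eIF3, with the same labels for age and tissue, and serve here only to show how far wild-type patterns recur on arrays that did not choose them. No comparison of genotypes was made. Replicates 1 and 2 of each genotype have 1 array date and replicate 3 has a later one, so that array date and biological replicate cannot be told apart. How many plants made up a replicate was not stated in the labels. The study's methods give continuous light for the eif3k experiment where the labels give a 16 h day, and this difference was not settled.

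The ATH1 array reads each transcript through a probe set, a group of short oligonucleotides from the 3′ part of an mRNA, and its signal depends on how well these bind as well as on the amount of RNA. An order of signals is therefore not an order of transcript amounts, and no fold between genes is given. Of 22746 probe sets left after the array's own controls, 14013 matched a single gene and are called named probe sets here. Among 148 genes with more than 1 named probe set, the means of the probe sets lay within 1 log2 unit in 50 and at least 2 units apart in 79, so that the signal of a gene can depend on the probe set.

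Green shoots of a seedling are largely mesophyll, whose chloroplasts make up much of the cell. Chloroplasts keep a small genome of their own that encodes core subunits of the photosystems, the cytochrome b6f complex, the ATP synthase, the NDH complex and the plastid ribosome and RNA polymerase. The nucleus encodes the remaining subunits, the light-harvesting antenna and the Calvin cycle enzymes that fix carbon. Leaf peroxisomes and mitochondria recycle the product of the oxygenase reaction of Rubisco in photorespiration, and growing leaf cells also make large amounts of cytosolic ribosomes.

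The lowest log2 signal on the wild-type arrays, here called the floor, was 2.25, the highest was 15.55, and array medians were between 4.02 and 4.09. The mean signal of the 3 arrays reached 8 for 2725 probe sets (12.0%), 10 for 766 (3.37%) and 12 for 192 (0.844%). Leaving out probe sets at the floor on every wild-type array, 16892 remained, and across these Pearson's r was 0.978 for replicates 3 and 1, 0.976 for replicates 3 and 2 and 0.994 for replicates 2 and 1, as a description across genes, which are not independent. Replicate 3 differed at least 2-fold from replicate 1 in 901 and from replicate 2 in 986 of them, whereas replicates 2 and 1 differed by that much in 75. The Affymetrix control for the 5′ end of GAPDH lay 5.02 log2 units below that for its 3′ end on replicate 3, against 4.17 and 4.18 units on replicates 1 and 2, and the same gap for actin was 3.99 units on replicate 3, against 3.12 and 3.13 units. Such gaps are a usual measure of RNA quality, and their part in the spread between arrays was not tested.

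**Figure D1:**
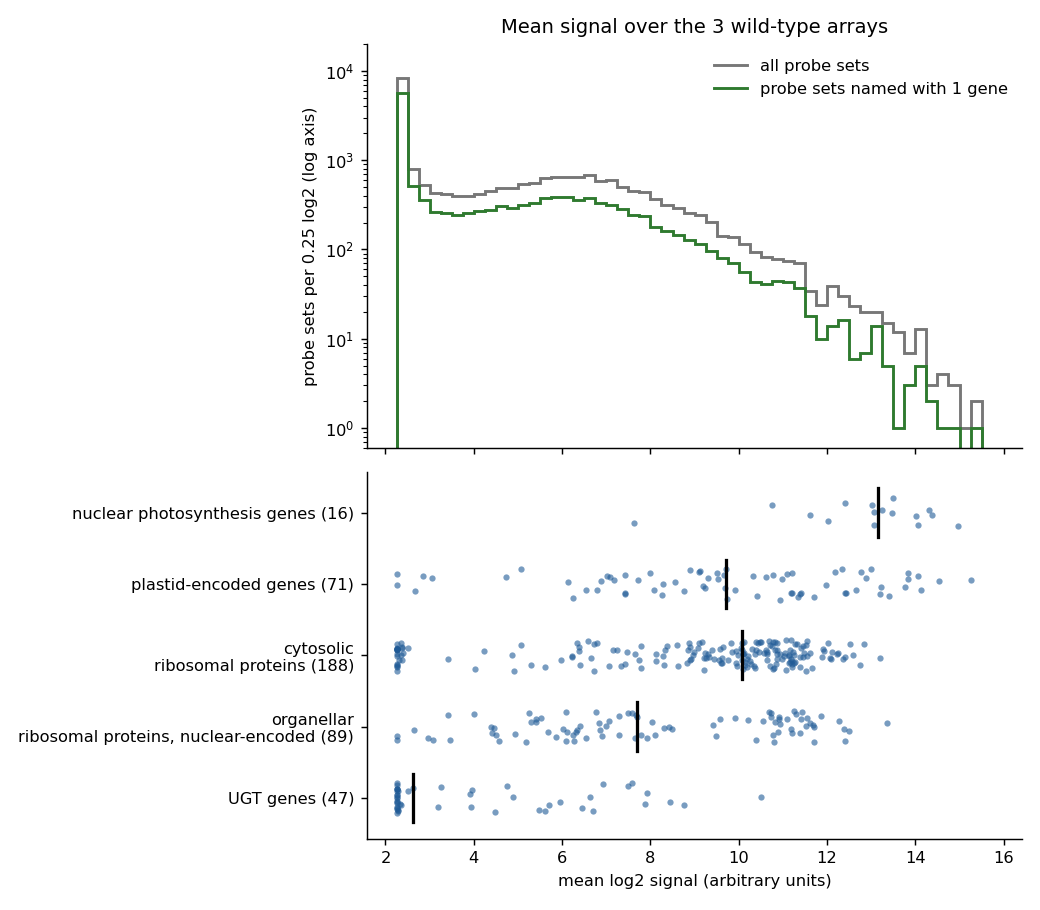
Mean log2 signal over the 3 wild-type arrays (x axis, arbitrary units). The upper panel counts probe sets per 0.25 log2 units on a log axis, all 22746 in grey and the 14013 named ones in green, and the lower panel shows 1 point per named probe set (scattered vertically for visibility) with the median as a black bar for 5 gene groups. The nuclear photosynthesis genes have a median of 13.15, while the UGT genes, at the bottom, have a median of 2.63 and many points at the floor on the left.

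Many of the most abundant transcripts by signal were those of the photosynthetic apparatus. Counted by the gene lists used here, 15 of the 50 named probe sets of highest mean signal were encoded by the plastid genome. The 15 are not all photosynthetic. Among them, rpoA belongs to the plastid RNA polymerase, and rps3, rps19, rpl16, rpl32 and rps4 to the plastid ribosome. Nuclear subunits of the photosystems and electron transport numbered 6, antenna proteins 3, enzymes of the Calvin cycle 2 and photorespiratory enzymes or catalases 2. A further 6 were cytosolic ribosomal proteins, 2 were nuclear-encoded plastid ribosomal proteins and 14 were in none of these lists. The lists are not complete, since AT2G26500, for a subunit of the cytochrome b6f complex, and PSB27 are among the 14. The counts of nuclear photosynthesis genes are therefore lower limits. These 50 had means from 12.42 to 15.25, and the last inside, rps4 and SAC52 at 12.42 each, lay next to SBPASE and petB at 12.41 each just outside. Because the rank chose these genes, their values are descriptions.

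The highest signal belonged to atpE, the plastid gene for the epsilon subunit of the chloroplast ATP synthase, with 15.30 on replicate 3 and 15.26 and 15.20 on replicates 1 and 2. It ranked first on each wild-type array, with a mean of 15.25 ± 0.05 (SD, n = 3). RCA, the Rubisco activase that clears inhibitory sugar phosphates from Rubisco, followed with 14.98 on replicate 3 and 15.01 and 14.88 on replicates 1 and 2, and was second on every wild-type array. The plastid gene atpB, for the beta subunit of the same ATP synthase as atpE, gave 14.40 on replicate 3 and 14.66 and 14.57 on replicates 1 and 2. For these 3 genes the arrays differed by no more than 0.26 log2 units, and no array was the lowest for all of them.

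Both photosystems were represented among the top 25. For photosystem I, PSAG had a mean signal of 14.32, psaB, the plastid gene of a reaction centre protein, 14.06, and PSAE-1, a stromal subunit near the ferredoxin site, 14.02. LHCA4, an antenna protein of photosystem I, gave 13.91 on replicate 3 and 14.68 and 14.57 on replicates 1 and 2, with a rank of 10 on the later array and of 3 on both arrays of the first date. For photosystem II, the small subunits psbM, PSBW and psbZ had means of 13.76, 13.48 and 13.19, and the CP29 antenna genes LHCB4.1 and LHCB4.2 had means of 14.06 and 13.46.
LHCB4.2 was at 12.80 on replicate 3 and at 13.79 on both replicates 1 and 2, and its SD of 0.57 was the highest of the top 25. The third CP29 gene, LHCB4.3, was far lower on the signal scale, with 7.78 on replicate 3 and 7.32 and 7.79 on replicates 1 and 2. All 3 arrays kept the same split, with LHCB4.3 as the single member of the 16 measured nuclear photosynthesis genes whose mean was below 10.

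The plastid gene psbA, for the D1 protein that is continually replaced in photosystem II, ran the other way from LHCA4, with 14.45 on replicate 3 and 13.68 and 13.35 on replicates 1 and 2. Its rank was 3 on the later array, against 14 and 19 on the others. AT2G26500, which encodes the small PetM subunit of the cytochrome b6f complex, was also highest on replicate 3, at 14.15, with 13.50 and 13.36 on replicates 1 and 2. The plastid genes ndhI, a subunit of the NDH complex that returns electrons to plastoquinone, and rpoA, the alpha subunit of the plastid-encoded RNA polymerase, had means of 14.13 ± 0.24 and 13.83 ± 0.10 (SD, n = 3 each).

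Carbon metabolism supplied several of the remaining leading signals. PRK, the phosphoribulokinase that regenerates the substrate of Rubisco, had 13.28 on replicate 3 and 13.18 and 13.25 on replicates 1 and 2. CAT2, the leaf catalase that removes photorespiratory hydrogen peroxide, had 13.33 on replicate 3 and 13.18 and 13.29 on replicates 1 and 2, and HPR, the peroxisomal hydroxypyruvate reductase, had 13.08 on replicate 3 and 13.11 and 13.27 on replicates 1 and 2. Each of the 3 enzymes varied by at most 0.19 log2 units between arrays. THI1, which makes the thiazole part of thiamine in the chloroplast, was at 14.35 on replicate 3 and at 13.94 and 13.83 on replicates 1 and 2, and so was highest on the later array.

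Seen as whole lists, the photosynthesis genes stood high. A mean signal of at least 10 was reached by 4 of 4 measured genes of Rubisco activation and the Calvin cycle, by 3 of 4 antenna genes, by 8 of 8 nuclear photosystem and electron transport genes and by 4 of 4 genes of photorespiration and the catalases, beside 2.63% of all named probe sets. These lists hold 18, 18, 29 and 12 genes, so that only part of each had a named probe set here. The lowest members apart from LHCB4.3 were PSAE-2, a second gene for the PSAE protein, with a mean of 10.74 ± 0.17, and CAT3, the catalase of vascular and ageing tissue, with 11.02 ± 0.61 (SD, n = 3 each). CAT3 was at 11.72 on replicate 3 and at 10.78 and 10.57 on replicates 1 and 2. FNR2, a ferredoxin-NADP reductase of the leaf, was likewise highest on replicate 3, at 12.26, with 11.52 and 11.08 on replicates 1 and 2.

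**Figure D2:**
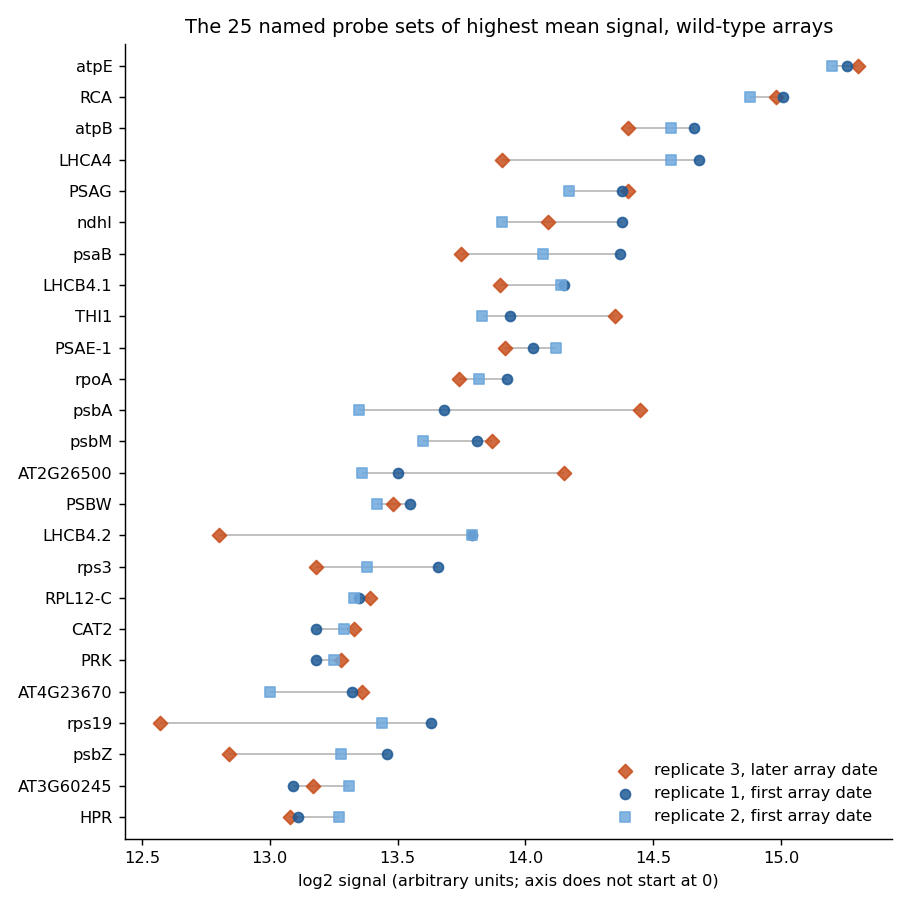
Log2 signal (x axis, arbitrary units) on each wild-type array for the 25 named probe sets of highest mean signal, ordered from the highest mean at the top. Diamonds are replicate 3 on the later array date, circles and squares are replicates 1 and 2 on the first. The order is stable at the top, where atpE and RCA hold the first and second rank on all 3 arrays, and LHCA4, LHCB4.2 and rps19 are the ones with the later array well below the others.

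The 71 plastid-encoded probe sets covered nearly the whole signal range. Their median mean signal was 9.72, and 33 of 71 had a mean of at least 10, yet petD and ndhF were at the floor of 2.25 on every wild-type array. The petB gene is transcribed together with petD and both encode core parts of the cytochrome b6f complex, but petB had a mean of 12.41, so that a plastid probe set at the floor does not show that the gene is silent. The study notes that these arrays favour polyadenylated RNA, and in plastids a poly(A) tail marks RNA for decay. The later wild-type array was at least 2-fold below both others in 22 of the 71 and at least 2-fold above in none, beside 1.06% and 1.54% of all named probe sets. The SD of 53 of the 71 was in the top 20% of all probe sets, beside 18.4% of the named ones. On the eif3k arrays, the replicate of the later date was at least 2-fold below both others in 63 of the 71, beside 1.62% of all probe sets. The control probe set for 25S ribosomal RNA was at 8.13 on that array and at 12.34 and 12.04 on replicates 1 and 2 of eif3k, while the wild type had 12.85 on replicate 3 and 12.87 and 12.23 on replicates 1 and 2. Its part in the plastid signals was not tested.

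Transcripts of ribosomal proteins were a further group with high signals. Of 188 probe sets of cytosolic ribosomal proteins, 95 had a mean of at least 10, beside 2.63% of all named probe sets, and their median was 10.06. AT3G60245, a gene for ribosomal protein RPL37a of the large subunit, led them with 13.17 on replicate 3 and 13.09 and 13.31 on replicates 1 and 2. Below it came emb2171 with a mean of 12.84 and AT4G39200, a gene for RPS25 of the small subunit, with 12.74. At the other end 15 of the 188 were at the floor on all 3 arrays, beside 29.3% of all named probe sets, among them AT2G47570, AT5G09490 and AT5G24510. Most Arabidopsis ribosomal proteins are encoded by several paralogs, and near-identical paralogs can share probes, so that values of single paralogs are uncertain.

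The nuclear-encoded ribosomal proteins of plastids and mitochondria had a median of 7.70 over 89 probe sets, with 33 at a mean of at least 10 and 1 at the floor. RPL12-C, a stalk protein of the plastid ribosome, was the highest, at 13.39 on replicate 3 and 13.35 and 13.33 on replicates 1 and 2. The plastid-specific protein PSRP3/1 had a mean of 12.49 and SSR16, the plastid protein S16, had 12.40. PSRP3/2, the second gene of the PSRP3 pair, had a mean of 2.96, close to the floor. In the plot of mean signals 0 of the 89 probe sets of this group lay between 8.5 and 9.3 and 37 lay above that. These limits were set with the values known. Few named probe sets have such means, with 144 of 14013 from 8.5 to 8.75, 129 from 8.75 to 9 and 116 from 9 to 9.25. The empty stretch therefore does not show that the group is split.

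Of the abundant 50, 14 were in none of these lists, and 3 of the 14 are given here. AT4G23670, whose product belongs to the major latex protein family, had 13.36 on replicate 3 and 13.32 and 13.00 on replicates 1 and 2. Just below the top 25 stood MT3, a metallothionein, which binds metal ions, with 13.71 on replicate 3 and 12.94 and 12.79 on replicates 1 and 2. The glycolytic enzyme GAPC2 had 12.90 on replicate 3 and 13.00 and 12.99 on replicates 1 and 2, which made it the only one of 13 measured reference genes in the abundant 50.

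At the other end of the scale, 5854 of 22746 probe sets (25.7%) were at the floor on all 3 wild-type arrays, which here means within 0.01 log2 units of 2.25. Among named probe sets the share was 4102 of 14013 (29.3%). The floor is what the deposited processing gives to many probe sets with no signal above their estimated background, so it marks a transcript that was not detectable with these probes. Some other probe sets held the same low value on all 3 wild-type arrays, such as OLEO3 at 2.87 and GL2 at 2.95. They are not counted at the floor, and whether they were detected was not tested. Groups of genes with a shared symbol stem (the letters before the first digit) and at least 8 named probe sets were counted in this way. Described here are 33 such families with 511 probe sets in all, 10 of them with a share above 29.3% and 7 with no member at the floor.

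The LCR stem had the highest share of these families, with 6 of 9 at the floor. Most of it consists of small cysteine-rich secreted proteins of the defensin type, and LCR69 and LCR68 stood out with means of 10.03 and 9.12 while LCR80, LCR59, LCR24, LCR66, LCR67 and LCR72 were at the floor. The GH stem, which joins GH3 amido synthetases and GH9 endoglucanases, had 9 of 19 at the floor, and GH9B7 was its brightest member with a mean of 9.02. Among the TET tetraspanins 7 of 15 were at the floor and TET8 led with 7.94.

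Cell wall, chromatin and transport families were also above the background share of 29.3%, but each of them has few probe sets. The XTH genes, whose enzymes cut and rejoin xyloglucan, had 4 of 9 at the floor, with XTH32 as the brightest at 8.49. The CHR stem of chromatin remodelling ATPases had 4 of 9 at the floor and CHR17 at 7.54. Its gene chr31 is among the 4 through separate probe sets, so these are not all different genes. The SWEET sugar transporters had 6 of 14 at the floor, and SWEET11, which releases sucrose for phloem loading in leaves, had the highest mean, at 10.31. The brightest SWEET gene after it, the vacuolar fructose transporter SWEET17, was at 7.60. UGT glycosyltransferases had 17 of 47 at the floor (36.2%), which is near the background share. Among them UGT88A1 was at 10.51 and UGT74B1, which acts in glucosinolate synthesis, at 8.76.

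In 7 families no probe set was at the floor. The stems RPL (26 probe sets) and RPS (25) of ribosomal proteins had medians of 10.98 and 10.29, and the EMB genes (17), which were named for embryo-defective mutants, had 11.21. Of these 17, however, 12 are ribosomal proteins that the ribosomal lists also hold, and the other 5 had means from 5.14 to 7.40. The ALDH aldehyde dehydrogenases (9) had a median of 9.07 and were led by ALDH11A3, a cytosolic glyceraldehyde-3-phosphate dehydrogenase that yields NADPH, with a mean of 11.34. All 8 measured ATG genes of autophagy were above the floor, from ATG8F at 10.59 down to ATG8H at 5.53. The ubiquitin-specific proteases of the UBP stem (12) and the secretory SEC stem (10) also had none at the floor, although SEC14 was close to it with a mean of 2.28. Of the ubiquitin-conjugating enzymes 1 of 15, UBC31, was at the floor, and UBC8 had the highest mean, at 12.31.

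**Figure D3:**
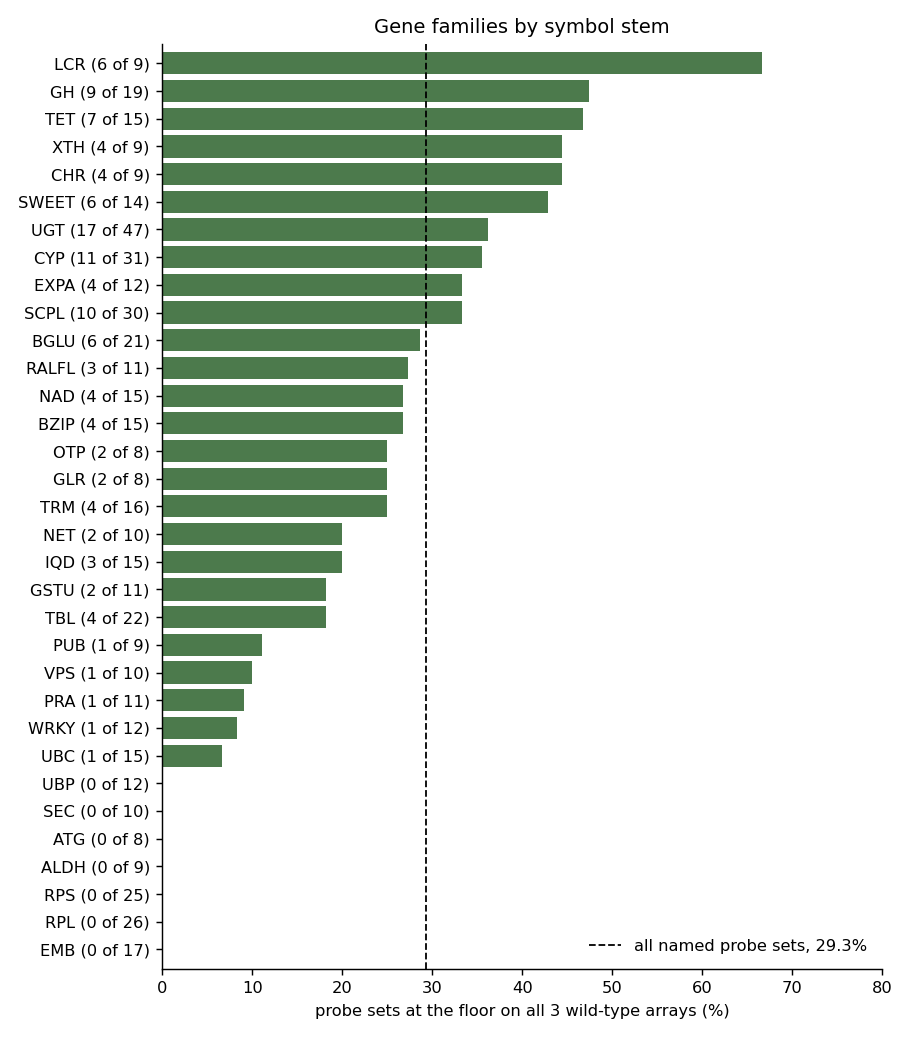
Share of probe sets at the floor of 2.25 on all 3 wild-type arrays (x axis, percent) for 33 gene families with at least 8 named probe sets, with the counts beside each name. The dashed line marks the 29.3% of all named probe sets. LCR has the highest share, with 6 of 9, and UBP, SEC, ATG, ALDH, RPS, RPL and EMB have none at the floor.

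Markers of tissues other than the green shoot were checked in the same way. Of the root list, 3 of 16 genes had a named probe set: the root hair expansins EXPA7 and EXPA18 were at the floor on all 3 arrays, but PYK10, a beta-glucosidase of ER bodies in roots and hypocotyls, gave 11.42 on replicate 3 and 10.62 and 10.40 on replicates 1 and 2. The part of root or hypocotyl tissue in these libraries was not tested. Of 10 meiosis genes 4 had a named probe set (SPO11-1, SPO11-2, SDS and MER3), and all 4 were at the floor. The stem cell marker CLV3, the only measured gene of 9 in the meristem list, was also at the floor. The tapetum gene A9, the only measured gene of 15 in its list, had a mean of 2.27. Of all named probe sets 29.3% were at the floor, and most genes of these lists were not measured.

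Genes of leaf development gave intermediate signals. AS1, a MYB factor that represses meristem genes in leaf primordia, had 9.43 on replicate 3 and 8.40 and 8.65 on replicates 1 and 2. PHV and YAB3, which specify the upper and the lower leaf side, had means of 6.72 and 6.09. Factors of the stomatal lineage were dimmer, with means of 4.66 for FAMA, 2.88 for SPCH and 2.28 for MUTE, which act late, early and in between in that lineage. The trichome genes TRY and GL2 had means of 4.62 and 2.95. The cuticle gene CER1 cannot be placed, because its 2 probe sets had means of 8.19 and 2.84. No gene of the phloem list and none of the xylem list had a named probe set.

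The steadiest transcripts were taken from the 1344 named probe sets with a mean signal of at least 8, where the median SD between the 3 wild-type arrays was 0.20 log2 units. The 50 of lowest SD had SDs from 0.0058 to 0.040, so that their arrays differed by less than 0.1 log2 units. Of these, 5 (10%) were organellar ribosomal proteins, which made up 3.12% of the 1344, and 4 (8%) were cytosolic ones, which made up 10%. The list of the Calvin cycle gave 2 and that of photorespiration 1, from 4 probe sets of each among the 1344. The last inside, AT5G07090 and AT4G27090, and the first outside, AT1G32470 and AT1G54320, all had an SD of 0.040 to the digits given, so the edge of this set is arbitrary. Deposited signals have 2 decimals, which limits how finely the lowest SDs can be told apart.

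AT5G39570 had the lowest SD, 0.0058, with 11.11 on replicate 3 and 11.10 and 11.11 on replicates 1 and 2. AT1G31910, a kinase of the mevalonate pathway to isoprenoids, had 9.81 on replicate 3 and 9.80 and 9.79 on replicates 1 and 2. AT3G12930, an Iojap-related protein of the chloroplast, had 8.06 on replicate 3 and 8.05 and 8.04 on replicates 1 and 2. On the eif3k arrays, which did not choose these genes, the SDs were 0.29, 0.08 and 0.65, and the last of these reflected a signal of 7.21 on replicate 3 beside 8.41 and 8.23. A low SD over 3 arrays thus did not carry over to every other triplet of arrays.

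Genes of different compartments appeared among the 15 steadiest. AT5G55290, subunit e of the vacuolar proton pump, had an SD of 0.012 on the wild-type arrays and of 0.031 on the eif3k arrays. AT1G62020, a gene for the alpha subunit of coatomer that coats Golgi vesicles, had SDs of 0.021 and 0.080 in the same order, and a second coatomer alpha gene, AT2G21390, was also among the 50, with SDs of 0.031 and 0.032. SSR16 had 12.41 on replicate 3 and 12.39 on both replicates 1 and 2.
AT1G11860, the T protein of the mitochondrial glycine decarboxylase that releases carbon dioxide in photorespiration, had 12.23 on replicate 3 and 12.25 and 12.21 on replicates 1 and 2. The zinc finger gene AT1G21580, with 8.32 on replicate 3 and 8.35 and 8.33 on replicates 1 and 2, and the beta-glucosidase gene BGLU33, with 8.37 on replicate 3 and 8.35 and 8.38 on replicates 1 and 2, were steady at a lower signal.

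The other genes of the 15 were AT3G02690, AT2G05790, AT1G29660, AT2G04280, AT5G54870 and AT3G08930, with SDs between 0.012 and 0.021. AT1G29660, a lipase of the GDSL type, had 10.25 on replicate 3 of eif3k beside 9.56 and 9.72, so that its SD there was 0.36. Over all 50, the SD on the eif3k arrays had a median of 0.17 and ran from 0.026 to 0.65, beside a median of 0.24 for all 1344 probe sets. It was under 0.1 for 18 of the 50 and above 0.24 for 17.

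Genes used as references in expression studies were compared with probe sets of like signal. Of 29 such genes 13 had a named probe set, and none was in the top 20% by SD. AT4G33380, with 6.82 on replicate 3 and 6.81 on both replicates 1 and 2, had an SD below that of all but 0.219% of the 1371 named probe sets within 0.5 log2 units of its mean. TUB6, a beta-tubulin, had 9.67 on replicate 3 and 9.63 and 9.61 on replicates 1 and 2, and 0.599% of its neighbours within 0.5 log2 units had a smaller SD. AT4G26410 had 7.95 on replicate 3 and 7.98 and 7.95 on replicates 1 and 2, and 1.3% of its neighbours in signal had a smaller SD.

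Some other common references were no steadier than a typical transcript of their signal. UBC21 (PEX4), a ubiquitin-conjugating enzyme, was at 7.61 on replicate 3 and at 7.15 and 7.24 on replicates 1 and 2, and 63.1% of its neighbours had a smaller SD. The cyclophilin gene ROC3 had 9.94 on replicate 3 and 9.67 and 9.45 on replicates 1 and 2, and 57.5% of its neighbours were steadier. TIP41L and AT2G32170 lay near the middle, with 49.5% and 46.6% of their neighbours below them in SD. GAPC2 and CACS, a clathrin adaptor subunit, were steadier, with 12.1% of 33 neighbours below GAPC2 and 8.17% below CACS, and SAND and FBOX were in between with 26.5% and 29.6%. AT5G12240 was at the floor on every array, where an SD of 0 says nothing of its level.

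**Figure D4:**
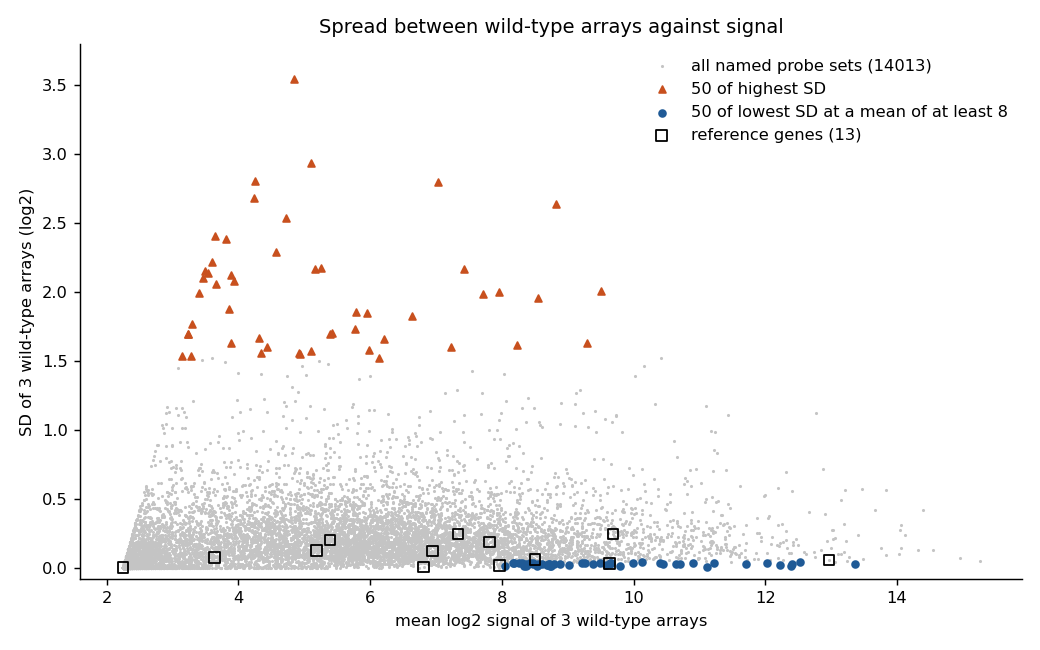
SD of the 3 wild-type log2 signals (y axis) against their mean (x axis) for 14013 named probe sets in grey. Orange triangles are the 50 of highest SD, blue circles the 50 of lowest SD at a mean of at least 8, and open squares the 13 reference genes measured. The triangles start at an SD of 1.52 and spread over means from 3.14 to 9.50, and no reference gene has an SD above 0.25.

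Spread depended little on signal above the floor. The median SD was 0.17 for means between 3 and 4 and 0.21 between 4 and 6. It was 0.20 from 6 to 8, from 8 to 10 and from 10 to 12, and 0.16 at 12 or more. A range of at least 2-fold between the 3 arrays was seen in 9.55% of probe sets with means between 4 and 6. The share was 11.8% from 10 to 12 and 7.29% at 12 or more. Only probe sets with a mean under 3 were far narrower, with a median SD of 0.031, and there the floor holds values together.

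The 50 most variable named probe sets had SDs between 1.52 and 3.54, and in 49 of them replicate 3 was farther from the other wild-type arrays than those were from each other. Replicate 3 stood apart in this sense in 44.1% of the 16892 probe sets with some signal above the floor. It was at least 2-fold above both others in 39 of the 50 and at least 2-fold below both in 11. The set ended with LEA18 and AT1G31690 inside, at SDs of 1.54 and 1.52, and atpA and OLEO2 just outside, at 1.52 each. Only 8 of the 50 were in any of the gene lists used here. The genes are ordered by their known roles, and no test was made since the spread chose them.

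Genes of seed reserves and late embryos are given first. CRA1, a 12S globulin that is stored in seeds and broken down at germination, had the highest SD, with 8.93 on replicate 3 and 2.62 and 2.98 on replicates 1 and 2. CRU3, another 12S globulin, had 7.33 on replicate 3 and 2.73 and 2.63 on replicates 1 and 2. The oil body protein OLEO2 had 5.35 on replicate 3 and 2.63 and 2.82 on replicates 1 and 2, while OLEO3 was at 2.87 on all 3. PAP85, a vicilin, had at most 2.74.
On the eif3k arrays CRA1 was at 7.43 on replicate 3 and at 2.86 and 7.58 on replicates 1 and 2, and CRU3 was at 6.92 on replicate 3 and at 2.95 and 7.22 on replicates 1 and 2. High globulin signals therefore also occurred on an array of the first date.

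Further genes with seed roles were high on replicate 3 of the wild type. PER1, a peroxiredoxin of dormant seeds, had 6.55 on replicate 3 and 2.25 and 2.62 on replicates 1 and 2, beside 3.48 on replicate 3 of eif3k and 2.25 and 2.62 on its replicates 1 and 2. ICL, the isocitrate lyase of the glyoxylate cycle that turns seed oil into sugar, had 6.16 on replicate 3 and 2.28 and 2.35 on replicates 1 and 2, beside at most 2.41 on the eif3k arrays. LEA18, a late embryogenesis abundant protein, had 4.91 on replicate 3 and was at the floor on the other wild-type arrays and on all eif3k arrays. CYS2, a cystatin that inhibits cysteine proteases, had 6.34 on replicate 3 and 2.66 on both replicates 1 and 2, beside 4.00 on replicate 3 of eif3k and 2.66 on both its others. The share of seed tissue or ungerminated seeds in replicate 3 was not tested.

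Several genes of the clock or of its evening phase were also among the 50. GRP7, an RNA-binding protein that the clock brings to a peak late in the day, had 11.86 on replicate 3 and 7.52 and 7.08 on replicates 1 and 2. COR27, a cold-regulated protein of the evening phase, had 6.42 on replicate 3 and PRR3, an evening pseudo-response regulator, had 5.89, and both were at the floor of 2.25 on replicates 1 and 2. AT1G07050, which encodes a protein with a CCT motif, had 5.98 on replicate 3 and was also at the floor on replicates 1 and 2. The eif3k arrays showed the same layout, with 10.95, 5.91, 6.03 and 4.02 for GRP7, COR27, PRR3 and AT1G07050 on replicate 3, while the last 3 were at or within 0.03 of the floor on both replicates of the first date.

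Other clock genes lay outside the 50. CCA1, a morning MYB repressor, had 8.69 on replicate 3 and 10.40 on both replicates 1 and 2, and on the eif3k arrays it had 8.84 on replicate 3 and 9.40 and 9.78 on replicates 1 and 2. Its partner LHY had 8.16 on replicate 3 and 8.39 and 8.76 on replicates 1 and 2, whereas on the eif3k arrays it was highest on replicate 3, at 9.20, with 7.34 and 8.20 on replicates 1 and 2. GI, which peaks late in the day and links the clock to flowering, had 5.25 on replicate 3 and 5.59 and 5.19 on replicates 1 and 2, and so its arrays overlapped. Time of harvest is given as the same for all samples, and whether it differed between replicates was not tested.

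Of the 11 variable probe sets that were low on the later array, 4 were plastid genes. The short open reading frames petG, a small subunit of the cytochrome b6f complex, psbK and psbI, both small subunits of photosystem II, were low there. The petG signal was 2.28 on replicate 3 and 4.54 and 7.35 on replicates 1 and 2, so that the arrays of the first date also differed, and it is the only one of the 50 in which replicate 2 stood apart. The psbK signal was 5.03 on replicate 3 and 8.01 and 9.25 on replicates 1 and 2, and that of psbI was 7.29 on replicate 3 and 10.02 and 11.20 on replicates 1 and 2. A core gene of photosystem I, psaA, had 6.34 on replicate 3 and 10.08 and 9.23 on replicates 1 and 2, whereas psbA, as given above, was highest on replicate 3.

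On the eif3k arrays these genes were also lowest on replicate 3. There petG had 2.25 on replicate 3 and 5.39 and 7.66 on replicates 1 and 2, and psbK had 4.02 on replicate 3 and 9.15 and 9.59 on the others. The psbI signal was 6.03 on replicate 3 and 11.04 and 11.14 on the others, and that of psaA was 5.53 on replicate 3 and 9.24 and 9.47 on the others. The psbA signal ran the other way from the wild type, with 10.01 on replicate 3 of eif3k and 13.60 and 12.89 on its replicates 1 and 2.

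Genes with roles in stress and defence were also among the 50. DR4, a protease inhibitor homologue named for its repression in drought, had 10.22 on replicate 3 and 5.94 and 4.95 on replicates 1 and 2. AT4G12490, a proline-rich lipid transfer protein, had 2.91 on replicate 3 and 7.22 and 5.61 on replicates 1 and 2, and its relative EARLI1 had 4.33 on replicate 3 and 7.49 and 6.81 on replicates 1 and 2. ELIP2, an early light-induced protein that protects chloroplasts in strong light, had 5.86 on replicate 3 and 8.16 and 9.84 on replicates 1 and 2. For DR4 the later array was high, and for the other 3 it was the lowest. On the eif3k arrays DR4 had 8.98 on replicate 3 and 6.97 and 6.54 on replicates 1 and 2, and ELIP2 had 5.86 on replicate 3 and 7.63 and 9.12 on replicates 1 and 2. There AT4G12490 had 6.64 on replicate 3 and 8.21 and 10.15 on replicates 1 and 2, and EARLI1 had 7.36 on replicate 3 and 9.25 and 10.96 on replicates 1 and 2.

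The lists of responsive genes showed the same array apart in part of their members. These lists were chosen with earlier results of these data known, so their counts are descriptions. The later wild-type array was at least 2-fold above both others in 2 of 3 measured jasmonate and wound genes, in 2 of 6 cold and drought genes and in 1 of 3 salicylate and defence genes, and at least 2-fold below both in 0, 1 and 1 of them, beside 1.54% and 1.06% of all named probe sets. LOX2, a chloroplast lipoxygenase that starts jasmonate synthesis, had 11.84 on replicate 3 and 9.13 and 9.51 on replicates 1 and 2, and OPR3, a later enzyme of the pathway, had 8.02 on replicate 3 and 6.49 and 6.32 on replicates 1 and 2. Among cold genes the neighbours COR15A and COR15B went opposite ways, with 4.32 for COR15A on replicate 3 and 6.19 and 6.98 on replicates 1 and 2, and with 7.08 for COR15B on replicate 3 and 5.09 and 5.28 on replicates 1 and 2. The 2 genes are similar in sequence, so the split between them is uncertain.
COR47, a dehydrin induced by cold and drought, was at 8.41 on replicate 3 and at 8.41 and 8.48 on replicates 1 and 2. PR1, the marker of salicylate signalling, had 3.11 on replicate 3 and 4.56 and 4.33 on replicates 1 and 2, and PR4 had 5.89 on replicate 3 and 4.43 and 4.59 on replicates 1 and 2. Of 6 flavonoid genes none passed 2-fold on the later array in either direction, and CHS (TT4), the first enzyme of the pathway, had 8.39 on replicate 3 and 7.71 and 8.73 on replicates 1 and 2. Of 11 heat shock genes only 2 were measured, and both were at or within 0.02 of the floor.

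Other named genes of the 20 most variable were all high on the later array. AT4G16146 had 8.38 on replicate 3 and 4.23 and 2.71 on replicates 1 and 2, and AT5G37990 had 7.50 on replicate 3 and 2.63 and 2.64 on replicates 1 and 2. BGLU19, a beta-glucosidase, had 7.21 on replicate 3 and 3.25 and 3.24 on replicates 1 and 2, and the cyclophilin gene AT2G21130 had 7.65 on replicate 3 and 4.13 and 3.70 on replicates 1 and 2. AT5G62360, a gene of the invertase and pectin methylesterase inhibitor family, had 6.01 on replicate 3 and 2.31 and 2.29 on replicates 1 and 2. AT5G58570 and AT4G14060 had 6.33 and 6.03 on replicate 3 and at most 2.73 on the others. On the eif3k arrays AT5G37990 had 4.04 on replicate 3 and 3.98 and 4.60 on replicates 1 and 2, so that it did not repeat there.

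**Figure D5:**
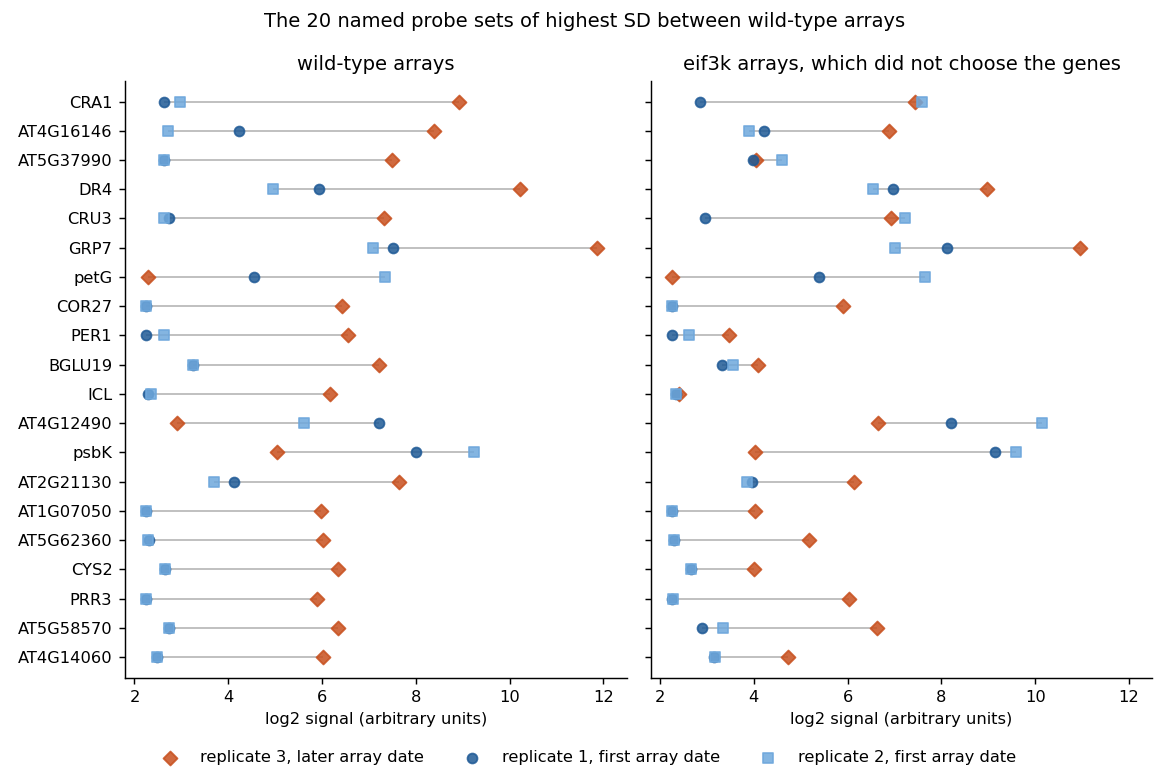
Log2 signal (x axis, arbitrary units) of the 20 named probe sets of highest SD, on the 3 wild-type arrays (left) and on the 3 eif3k arrays (right). Diamonds are replicate 3 on the later array date, circles and squares are replicates 1 and 2. On the left the diamond is the extreme point for every gene, low for petG, psbK and AT4G12490 and high for the others. On the right CRA1, CRU3 and AT5G37990 do not show that layout, and the diamond of ICL, at 2.41, lies close to the others at 2.35.

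Of the 39 variable probe sets that were at least 2-fold higher on replicate 3 than on both other wild-type arrays, 24 had replicate 3 at least 2-fold above both others among the eif3k arrays too, beside 2.39% of all probe sets. Of the 11 that were lower, 10 were also lower on replicate 3 of eif3k, beside 1.62% of all probe sets. The genotypes share no array, but they share array dates and were normalised together by the authors. Over all probe sets, 369 were at least 2-fold higher and 299 at least 2-fold lower on replicate 3 of the wild type than on both others, and 164 and 114 of them did the same among the eif3k arrays. On replicate 3 of eif3k the 25S control stood apart from all other arrays, as given above, and its part in these counts was not tested. With 1 wild-type array on the later date, a difference of date and one of biological replicate cannot be told apart.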

How the data were processed

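The data were a single table of log2 signals deposited by the authors for 6 ATH1 arrays. According to the submitters' processing notes GCRMA made them (version not given in the sources used here). GCRMA estimates background from probe sequence, normalises arrays together by quantiles and summarises probe sets. Many dim probe sets, but not all, then share the lowest value. The log base was inferred from GCRMA's output and the span of signals. RMA was used in the study's methods instead. The table has 22810 probe sets, from which the 64 Affymetrix controls were removed. The platform annotation named 13513 of the rest with 1 gene, updated through RefSeq names, and locus pairs in the study's supplement named 500 more. A further 548 matched several genes and 8185 are unnamed here. The supplement also gave the ribosomal protein groups.

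Means, ranges and SDs were computed in Python 3.11.15 with pandas 2.3.3 and numpy 2.4.6, without further normalisation. A probe set was at the floor when within 0.01 of the lowest value on all 3 arrays, and steadiness was ranked at a mean of at least 8. An array stood apart when it was farther from both others than they were from each other. No test was made, because rank, floor and spread choose the genes. The procedure was tested on simulated data, where it found every planted probe set. The planted sets were set apart far more clearly than those of the real arrays, so this checks the code and not its performance on these data. Genes were named as the 25 of highest mean, the 15 of lowest and the 20 of highest SD, up to 4 of highest mean and up to 4 of highest SD in each list, and families as up to 8 of highest and 8 of lowest share at the floor. Members within families, plastid and ribosomal protein genes and further members of the 50 were chosen for naming once their values were known. The members and lists were chosen with earlier results of these data known. That there are 3 arrays limits the precision. Alternatives were other averages, floors, signal minimums and scalings, and leaving out each array. Promoter and protein sequences were not analysed here. A single gene family is not reported here.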

Additional observations from a re-analysis of the deposited data

How the results depend on the processing

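No paired analysis was possible because the results come from no test and from 1 genotype. Of the 50 most abundant probe sets 47 to 50 remained under a median, a mean of linear signals, median centring and leaving out each array. Median centring could not change this set, because it leaves each mean of 3 arrays as it was. The count at the floor was 5854, 7209 within 0.1 of the lowest value, 6580 on at least 2 of 3 arrays, from 5965 to 6206 with 1 array left out and 9264 for signals under 3. Of the 50 steady probe sets 48 remained under the range over arrays, 26 after median centring and 27 after quantile normalisation. With minimum means of 6 and 10, which change the probe sets that can enter, 11 and 15 remained, and between 6 and 15 remained with 1 array left out, the fewest without replicate 3. Of the 50 most variable 46 remained under the range, 42 with no array at the floor and 48 after median centring. Without replicate 3, 8 remained, and the range over left-out arrays was 8 to 47. Replicate 3 stood apart in 98% of the 50, in 98% under median centring or with no array at the floor and in 67.7% of the 20% of highest SD over all probe sets. The 25 mean signals moved by less than their SD under all alternatives run on them, but this outcome was fixed in advance. Leaving out 1 of 3 arrays cannot move a mean by as much as its SD, and median centring does not move it at all. Without replicate 3, the SDs of 21 of the 35 named steady and variable genes changed by more than 1.5 times. A signal near the floor, a probe set that several paralogs share and 3 arrays limit what these values can show.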

Other observations

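Families not described above spread widely between floor and high signal. The floor counts here stand beside 29.3% of all named probe sets, and the shares of the CYP (35.5%), EXPA (33.3%) and nad (26.7%) stems were near it. Of 31 probe sets of the CYP stem of cytochrome P450 enzymes, 11 were at the floor on all 3 wild-type arrays. CYP72A13, CYP71B26 and CYP72A11 were the brightest, with means of 9.21, 8.60 and 8.54. The EXPA stem of expansins, which loosen cell walls, had 4 of 12 at the floor and a highest mean of 11.18, and the GSTU stem of glutathione transferases had 2 of 11 at the floor and a highest mean of 11.10. Of 12 WRKY genes only WRKY42 was at the floor, but 11 of the 12 had means of at most 4.53, with WRKY20 at 7.14 as the exception. The mitochondrial nad genes, subunits of respiratory complex I, had 4 of 15 probe sets at the floor and none above 6.19. These families were picked with their values known.

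Genome position and gene length, from RefSeq gene spans, are given as descriptions. The nuclear genes had a median span of 1409 bases in the abundant set (35 genes), 2118 in the steady set (50), 1741 in the variable set (46), 1625 at the floor (4099) and 2115 over all named probe sets (13939). Of the abundant 50, 12 lay on chromosome 1, 4 on chromosome 2, 8 on chromosome 3, 7 on chromosome 4 and 4 on chromosome 5. The other 15 were the plastid-encoded ones. Of all named probe sets, chromosomes 1 to 5 held 25.7%, 16.2%, 20.3%, 14.5% and 22.3%, in that order.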
